A study of Homo sapiens with 4 samples.

Results

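PDLIM5 and the other human genes that join a PDZ domain to LIM domains were followed by RNA sequencing in SK-N-BE(2), a neuroblastoma cell line of human origin that carries MYCN amplification. The family has 9 members here. They are the ALP subfamily (PDLIM1, PDLIM2, PDLIM3 and PDLIM4), the Enigma subfamily (PDLIM5, PDLIM7 and LDB3) and the LIM kinases (LIMK1 and LIMK2). Members were taken by gene symbol from a table of 64252 Ensembl genes. Each symbol had 1 row, so no choice between rows was needed, and all 9 were among the 18775 genes that passed the filter on low counts. The list was built around PDLIM5, which was selected on its counts in this comparison, with the change already known. PDLIM5 is therefore described without a test, and the other members are given with the test run over all genes.

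The cells carried a control short hairpin RNA (shControl, 2 libraries) or a hairpin against CDK5RAP3 (shCDK5RAP3, 2 libraries). CDK5RAP3 works with UFL1, the ligase that attaches UFM1 to proteins, at the endoplasmic reticulum. All 4 libraries came from the same line. How many hairpins were used, and their sequences, is not stated in the labels. Total counts lay between 28653689 and 30138393 per library, and CDK5RAP3 itself was at 62.1% of its control level, with 2529 and 2866 counts in shControl against 1669 and 1689 in shCDK5RAP3. Libraries of a group differed by more than counting noise (chi-square per degree of freedom 8.67 and 6.81, against 77.3 to 87.9 between groups). The labels do not tell whether replicates were separate cultures, so p-values measure the spread between these libraries only, which may be technical. All 8 noradrenergic neuroblastoma markers were expressed, with a summed level of 2438 and 2638 in shControl and 1754 and 1833 in shCDK5RAP3 on the counts-per-million (CPM) scale. Of these 8 markers 6 fell and 0 rose at an edgeR adjusted p under 0.05, beside 21.8% and 19.7% of all genes tested.

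PDZ-LIM proteins are adaptors of the actin cytoskeleton. The PDZ domain binds alpha-actinin or related proteins on actin filaments, and the LIM domains, paired zinc fingers, bring kinases and other signalling proteins to that site. ALP members carry a single LIM domain at the end of the protein and Enigma members carry several of them. The LIM kinases hold their LIM and PDZ domains ahead of a kinase domain, and they phosphorylate cofilin, which stops it from severing actin filaments.

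PDLIM5, selected on its counts in this comparison, was by far the most changed member. PDLIM5 (also called ENH; ENSG00000163110, GRCh38 chromosome 4, 94451857 to 94668227) ties protein kinase C to its substrates, and in neurons it acts at dendritic spines. The shControl libraries held 6117 and 5995 PDLIM5 counts, the shCDK5RAP3 libraries 1130 and 1132. On the CPM scale this was 211 and 206 CPM against 39.6 and 38.3 CPM. Both shCDK5RAP3 libraries lay far below both shControl libraries, and the libraries of each group were close to each other. The means were 209 ± 3.70 CPM and 38.9 ± 0.930 CPM (SD, n = 2 each), so PDLIM5 stood at 18.6% of control (log2 fold change -2.42). Among the 1726 genes with an average level at or above that of PDLIM5, it ranked 3 from the lowest log2 fold change. Over all 18775 genes, many of them with few counts, 0.863% had a lower log2 fold change. Both values rest on the counts by which PDLIM5 was selected, so they describe it only. Counts are per gene, so they do not tell which PDLIM5 isoforms, long forms with LIM domains or short forms without them, made up the remaining reads. In these bulk libraries fewer cells that express PDLIM5 and less PDLIM5 RNA per cell cannot be told apart.

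**Figure D1:**
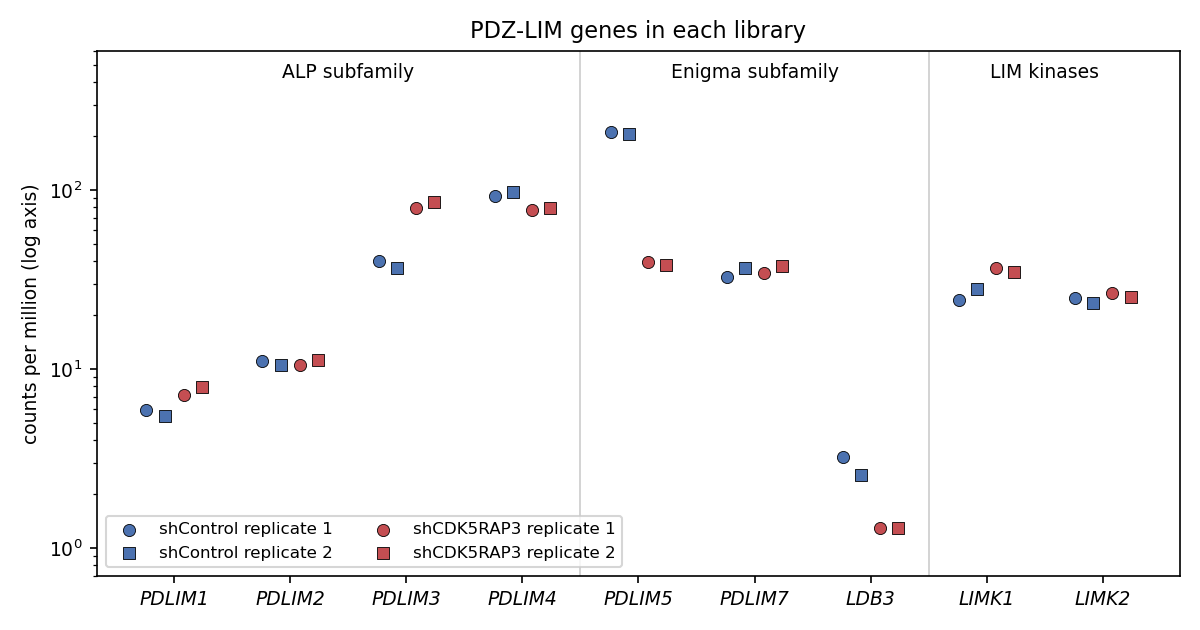
Level in CPM (log axis) of the 9 PDZ-LIM genes, 1 point per library, with blue for shControl and red for shCDK5RAP3 and circles and squares for replicates 1 and 2. PDLIM5 goes from 211 and 206 in shControl to 39.6 and 38.3 in shCDK5RAP3, while PDLIM2 and PDLIM7 overlap between the groups.

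The upstream windows of 3 members are shown because PDLIM5 and PDLIM3 had the largest changes in either direction, and LDB3 was the only member whose window held a CArG box. RefSeq listed 11 windows for 8 of the 9 members, PDLIM2 being the exception. LDB3, LIMK1 and LIMK2 had 2 each, and the first of LDB3 is shown. Each window runs from 250 bases before to 50 bases after the annotated start on GRCh38.p14 and is printed 5′ to 3′ on the gene's own strand. PDLIM5 lies at chr4:94451692-94451991 on the plus strand, PDLIM3 at chr4:185535458-185535757 on the minus strand, and LDB3 at chr10:86668261-86668560 on the plus strand. Capitals mark matches to the motifs named after them.
PDLIM5: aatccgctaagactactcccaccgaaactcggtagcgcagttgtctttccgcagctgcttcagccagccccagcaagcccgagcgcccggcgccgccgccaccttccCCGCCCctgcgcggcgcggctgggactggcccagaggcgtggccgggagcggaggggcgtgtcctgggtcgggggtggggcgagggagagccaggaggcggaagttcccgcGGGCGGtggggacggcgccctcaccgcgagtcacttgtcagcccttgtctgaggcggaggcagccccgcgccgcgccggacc
PDLIM3: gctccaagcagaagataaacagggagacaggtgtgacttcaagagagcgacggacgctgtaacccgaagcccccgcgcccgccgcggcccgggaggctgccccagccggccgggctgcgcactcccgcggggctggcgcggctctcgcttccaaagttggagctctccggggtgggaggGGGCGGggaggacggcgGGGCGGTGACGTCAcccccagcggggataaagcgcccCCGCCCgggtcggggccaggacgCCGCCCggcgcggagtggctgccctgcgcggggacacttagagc
LDB3: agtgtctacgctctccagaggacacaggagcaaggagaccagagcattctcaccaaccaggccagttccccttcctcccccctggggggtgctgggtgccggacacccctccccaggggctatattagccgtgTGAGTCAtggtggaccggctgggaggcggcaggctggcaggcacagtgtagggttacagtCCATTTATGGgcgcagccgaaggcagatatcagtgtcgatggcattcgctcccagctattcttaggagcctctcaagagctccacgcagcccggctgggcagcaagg

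Each window was searched on both strands for the CArG box of serum response factor, for GGAATG (the TEAD core) and for TGANTCA (the AP-1 site). TGACGTCA (the full cyclic-AMP response element) and GGGCGG (the GC box) were added after the sequences were seen. The LDB3 window shown held 1 CArG box, whose first base lies 57 bases before the start, and 1 TGANTCA. In the second LDB3 window, with a later start, the CArG box lies 110 bases and TGANTCA 170 bases before the start. Among all 35116 listed windows of this length 1.29% held a CArG box and 7.71% held TGANTCA. In the PDLIM3 window TGACGTCA lies 48 bases before the start, next to a GGGCGG, where 1.85% of all windows hold TGACGTCA. PDLIM5 held 2 GGGCGG, a motif in 45.0% of all windows, and none of the other 4. GGAATG, found in 14.0% of all windows, was in no member's window. The windows of PDLIM5 and PDLIM3 were alike in base composition, with 73.7% and 74.0% G and C and 36 CpG each. The LDB3 window shown had 61.7% and 11 CpG.

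The 7-base words AACACCT and ACACCTA were taken over from an earlier analysis of these data and sought in 3′ UTRs. In the longest annotated 3′ UTR of each member neither word occurred in PDLIM5, whose 3′ UTR is 4160 bases long, nor in any other member but PDLIM3. The site in PDLIM3, bases 1044 to 1067 of its 3′ UTR, is shown with the word in capitals.
PDLIM3 3′ UTR: gcaataatAACACCTccactacca
Of 13561 tested genes with an annotated 3′ UTR, 15.3% held either word. The share of members that hold a word, 1 of 9, is near this background.

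The other Enigma members did not share this size of change. PDLIM7 (Enigma; ENSG00000196923, chromosome 5, 177483394 to 177497606) binds the receptors RET and INSR through its LIM domains. It had 946 and 1072 counts in shControl and 984 and 1117 in shCDK5RAP3, or 32.7 and 36.9 CPM against 34.5 and 37.8 CPM. The groups overlapped, and PDLIM7 did not pass (log2 fold change 0.05 ± 0.10 SE, edgeR adjusted p = 0.694). Its sign depended on scaling and on the libraries used, with log2 fold changes from -0.03 to 0.14 over the alternatives. LDB3 (ZASP or Cypher; ENSG00000122367, chromosome 10, 86668449 to 86736068) is a Z-disc protein of heart and skeletal muscle and was the lowest member here. It had 93 and 74 counts in shControl and 37 and 38 in shCDK5RAP3. That is 3.22 and 2.55 CPM against 1.30 and 1.28 CPM, with both shCDK5RAP3 libraries below both shControl libraries. LDB3 fell to 44.8% of control (log2 fold change -1.16 ± 0.27 SE, edgeR adjusted p = 0.0085). Its call was lost without shCDK5RAP3 replicate 1 (edgeR adjusted p = 0.0517) or shCDK5RAP3 replicate 2 (0.0703).

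Among the ALP members PDLIM3 rose and PDLIM4 fell. PDLIM3 (ALP; ENSG00000154553, chromosome 4, 185500660 to 185535612) was named for its binding to alpha-actinin at the Z-disc of muscle. It had 1157 and 1060 counts in shControl and 2278 and 2544 in shCDK5RAP3, or 40.0 and 36.5 CPM against 79.8 and 86.0 CPM. Both shCDK5RAP3 libraries were above both shControl libraries. PDLIM3 rose 2.17-fold, its group means being 38.2 ± 2.50 and 82.9 ± 4.39 CPM (SD, n = 2 each; log2 fold change 1.12 ± 0.08 SE, edgeR adjusted p = 1.53e-05). PDLIM4 (RIL; ENSG00000131435, chromosome 5, 132257671 to 132273454) bundles actin together with alpha-actinin. It had 2664 and 2839 counts in shControl and 2194 and 2338 in shCDK5RAP3, that is 92.1 and 97.7 CPM against 76.8 and 79.0 CPM. The groups did not overlap, and the fall to 82.1% of control was small (log2 fold change -0.28 ± 0.07 SE, edgeR adjusted p = 0.00789). The call for PDLIM4 was lost without shCDK5RAP3 replicate 1 (0.111) or shCDK5RAP3 replicate 2 (0.0826). P4HA2 overlaps PDLIM4 on the opposite strand with 0 shared exon bases in GENCODE 29, and it had a log2 fold change of 0.97. Whether counting used strand is not stated in the labels.

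PDLIM1 and PDLIM2 did not pass. PDLIM1 (CLP36; ENSG00000107438, chromosome 10, 95237572 to 95291024) links alpha-actinin to stress fibres. It had 171 and 158 counts against 205 and 235, or 5.91 and 5.44 CPM in shControl and 7.18 and 7.94 CPM in shCDK5RAP3. Both shCDK5RAP3 libraries were the higher ones, but the difference missed the threshold (log2 fold change 0.41 ± 0.17 SE, edgeR adjusted p = 0.0819). PDLIM2 (Mystique; ENSG00000120913, chromosome 8, 22578279 to 22598025) takes the transcription factors STAT4 and RELA to degradation in the nucleus. It had 319 and 306 counts in shControl and 299 and 332 in shCDK5RAP3, so the groups overlapped (log2 fold change 0.01 ± 0.14 SE, edgeR adjusted p = 0.963). Of its 12388 exon bases, 465 are shared with the gene AC037459.1, which had 0 to 10 counts per library.

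Of the LIM kinases LIMK1 rose modestly and LIMK2 did not pass. LIMK1 (ENSG00000106683, chromosome 7, 74082933 to 74122525) is the neuronal form that acts downstream of PAK and ROCK kinases. It had 706 and 817 counts in shControl and 1049 and 1024 in shCDK5RAP3, or 24.4 and 28.1 CPM against 36.7 and 34.6 CPM. The groups did not overlap, and LIMK1 rose 1.36-fold (log2 fold change 0.44 ± 0.10 SE, edgeR adjusted p = 0.0072). Its call was lost without shCDK5RAP3 replicate 1 (0.0776), without shCDK5RAP3 replicate 2 (0.0704) and without a filter on low counts (0.0693). LIMK2 (ENSG00000182541, chromosome 22, 31212239 to 31280080), its widely expressed paralog, had 723 and 682 counts against 756 and 747. In CPM these were 25.0 and 23.5 against 26.5 and 25.3, a log2 fold change of 0.09 ± 0.10 SE (edgeR adjusted p = 0.475).

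Beside PDLIM5, then, 2 of the other 8 members rose (PDLIM3 and LIMK1), 2 fell (PDLIM4 and LDB3) and 4 did not pass. Over all 18775 genes 41.5% passed the edgeR adjusted p of 0.05, with 19.7% higher and 21.8% lower, so a count of 4 in 8 is near the background of this comparison. For 6 of the 8 the libraries of both groups lay apart without overlap, against 71.4% of all genes. Of these 6, 4 were higher in shCDK5RAP3 and 2 lower, beside 35.0% and 36.4% of all genes. The median log2 fold change of the 8 was 0.07, beside -0.0034 for all genes tested. Without shCDK5RAP3 replicate 1, and equally without shCDK5RAP3 replicate 2, PDLIM3 was the only one of the 8 that passed, where the lone library left is assumed to vary like the controls.

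**Figure D2:**
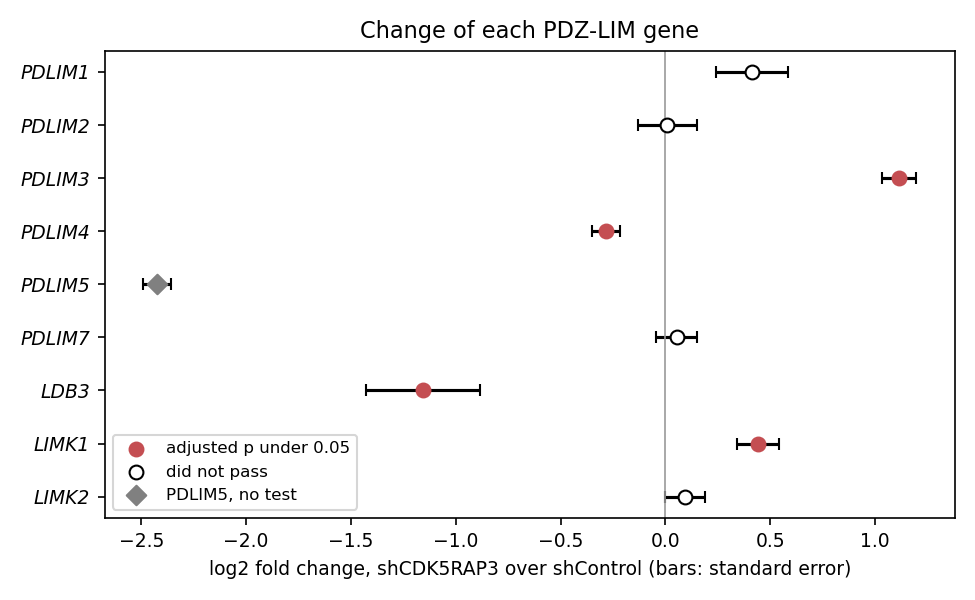
Log2 fold change of each PDZ-LIM gene, shCDK5RAP3 over shControl, with standard errors as bars, filled red points for genes past an edgeR adjusted p of 0.05, open points for those that did not pass and a grey diamond for PDLIM5, for which no test is given. PDLIM5 stands at -2.42 and LDB3 at -1.16, whereas PDLIM3 stands at 1.12. The bar of PDLIM5 comes from the same fit and is not to be read as a test of this selected gene.

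Set against all genes, PDLIM5 combines a high level with a large change, both read from the counts on which it was selected. PDLIM3 and LDB3 were the only other members whose means differed by more than 2-fold between the groups. LDB3 did so at 1.28 to 3.22 CPM, where its standard error of 0.27 was the largest of the family.

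**Figure D3:**
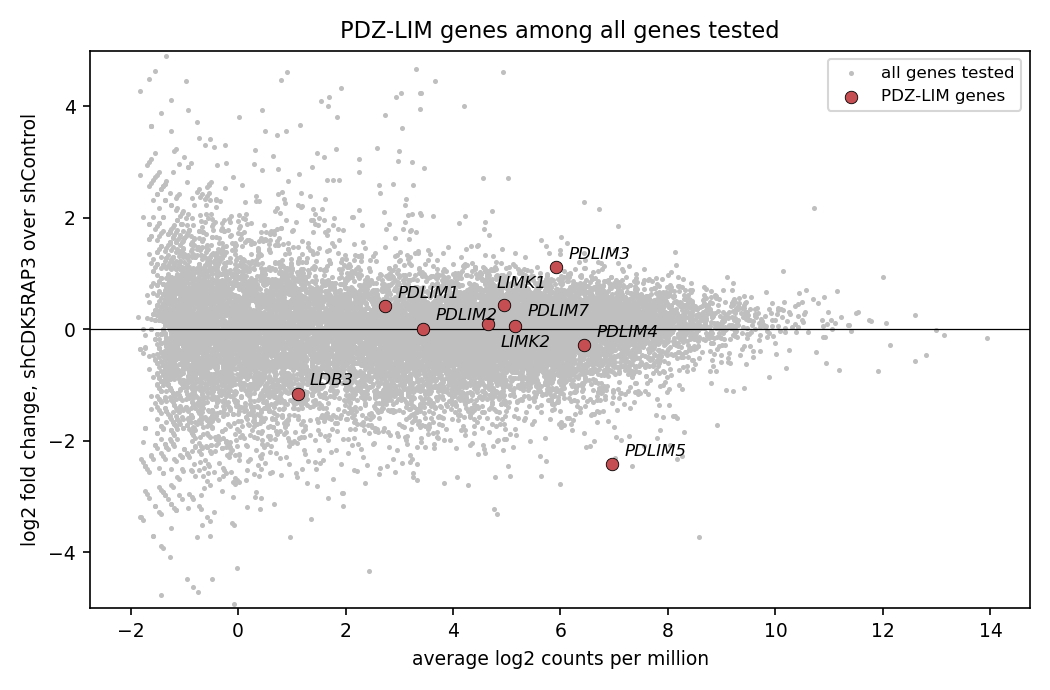
Log2 fold change, shCDK5RAP3 over shControl, against the average log2 CPM for the 18775 genes tested (grey) and the 9 PDZ-LIM genes (red); 30 genes beyond a log2 fold change of 5 either way are not drawn. PDLIM5 lies at -2.42 at the lower edge of the cloud for its level, and the other members lie between -1.16 and 1.12.

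To compare levels between genes, CPM was divided by the length of all annotated exons of a gene in kilobases (CPM per kb). This scale understates genes with many alternative exons. On it PDLIM4 was highest in shControl, at 29.7 ± 1.23 CPM per kb, followed by PDLIM5 at 18.8 ± 0.334 and PDLIM7 at 7.89 ± 0.670 (SD, n = 2 each). PDLIM3 (4.19 ± 0.274), LIMK2 (3.93 ± 0.176) and LIMK1 (3.80 ± 0.379) came next, and their ranges overlapped from each to the next. PDLIM1 (2.53 ± 0.150), PDLIM2 (0.870 ± 0.0286) and LDB3 (0.431 ± 0.0709) were lowest, with no overlap between neighbours in this order. In shCDK5RAP3 the order of these levels was PDLIM4 (24.4 ± 0.484 CPM per kb), PDLIM3 (9.09 ± 0.481), PDLIM7 (8.19 ± 0.528), LIMK1 (5.17 ± 0.218) and LIMK2 (4.19 ± 0.141). PDLIM5 followed at 3.51 ± 0.0838 CPM per kb, rank 6 of the 9, and its range overlapped that of PDLIM1 at 3.38 ± 0.241. PDLIM2 (0.876 ± 0.0428) and LDB3 (0.193 ± 0.00121) stayed the lowest. The place of PDLIM5 depends on the division by length, with 11090 exon bases against 3192 for PDLIM4. In CPM PDLIM5 was the highest member in shControl, at 209 against 94.9 for PDLIM4. In shCDK5RAP3 its 38.9 CPM lay below PDLIM3 (82.9) and PDLIM4 (77.9) and above the rest, with PDLIM7 next at 36.1.

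The make-up of the ALP and Enigma transcripts differed accordingly. In shControl PDLIM5 held 29.9% and 28.5% of their summed CPM per kb, in shCDK5RAP3 7.36% and 6.78%. PDLIM3 went the other way, from 6.88% and 6.13% to 18.1% and 18.5%. The sum of the 7 genes was 63.7 and 65.2 CPM per kb in shControl against 48.5 and 50.9 in shCDK5RAP3. Leaving PDLIM5 out, the sums were 44.7 and 46.6 against 44.9 and 47.4, and the groups overlapped. That overlap holds for this scale, in which the exon length of a gene sets its weight. In CPM the 8 members other than PDLIM5, LIM kinases included, summed to 234 and 241 in shControl. In shCDK5RAP3 they summed to 273 and 283, so on that scale the groups did not overlap. Relative to PDLIM3, PDLIM5 in CPM per kb went from a level 4.35 and 4.65 times as high to one 0.408 and 0.366 times as high. Among the kinases the ratio of LIMK1 to LIMK2 in CPM per kb was 0.873 and 1.07 in shControl and 1.24 and 1.23 in shCDK5RAP3.

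**Figure D4:**
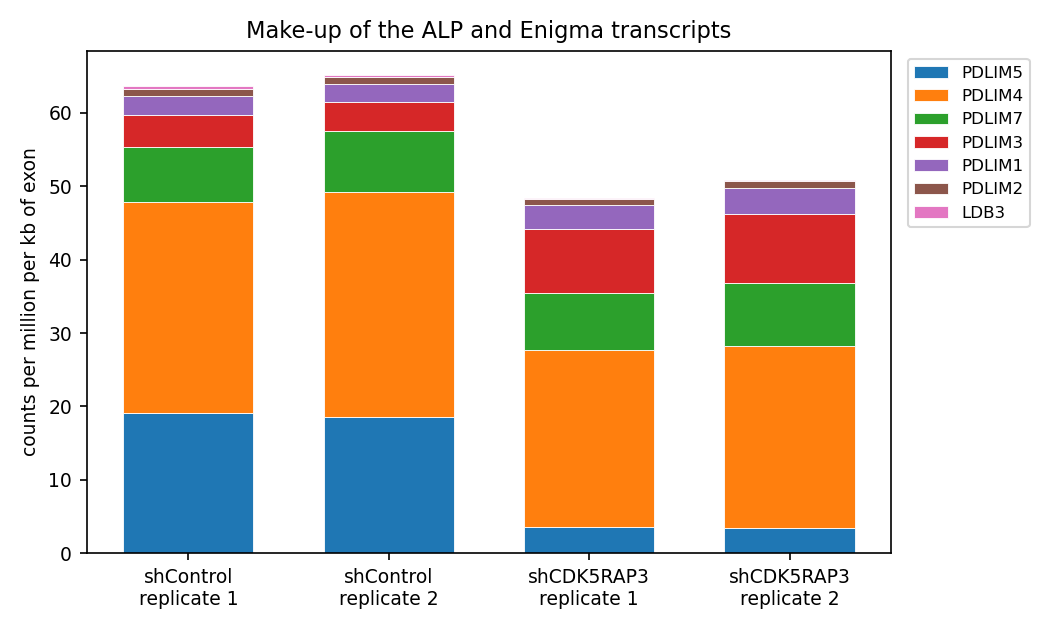
Level of the 7 ALP and Enigma genes in each library, stacked, in CPM per kb of exon. PDLIM5 (blue, at the base) takes 29.9% and 28.5% of the shControl bars and 7.36% and 6.78% of the shCDK5RAP3 bars, and PDLIM3 (red) takes a larger part of the latter.

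The genes that work with this family were taken from 4 lists drawn up by known function, and 1 gene, TRIP6, is on 2 of them. In the LIM kinase pathway 10 of 24 tested genes rose, 4 fell and 10 did not pass, with a median log2 fold change of 0.15. The 14 that passed were 58.3% of the list, beside 41.5% of all genes (19.7% higher and 21.8% lower). The kinases ROCK1 and ROCK2 activate LIM kinases, and small GTPases act upstream of them. Among these, RHOB rose from 155 ± 6.17 to 405 ± 20.2 CPM (SD, n = 2 each; log2 fold change 1.38 ± 0.07 SE, edgeR adjusted p = 1.9e-06). RHOA (0.69), RAC1 (0.22) and ROCK2 (0.23) also rose, while RHOC (-0.28) fell, and ROCK1 (0.11) and CDC42 (-0.14) did not pass. Of the PAK kinases, which activate LIM kinases below RAC1 and CDC42, PAK1 fell (-0.69), PAK2 rose (0.28) and PAK4 did not pass (-0.20).

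At the lower end of that pathway, the substrate cofilin (CFL1) rose from 951 ± 54.3 to 1330 ± 28.4 CPM (SD, n = 2 each; log2 fold change 0.48 ± 0.06 SE, edgeR adjusted p = 0.000216). Its relatives CFL2 (0.19) and DSTN (0.11) did not pass. The phosphatases that remove the LIM kinase mark from cofilin went both ways, with SSH1 (0.58) and SSH2 (0.44) higher and PDXP (chronophilin) lower. PDXP had 139 ± 8.30 CPM in shControl and 55.9 ± 14.6 CPM in shCDK5RAP3 (SD, n = 2 each; log2 fold change -1.31 ± 0.14 SE, edgeR adjusted p = 0.00014). Cofactors of cofilin in filament turnover were split too, with CAP2 (1.11) and CAP1 (0.22) higher and WDR1 (-0.44) lower. TESK1 (0.09) and TESK2 (-0.48), kinases related to the LIM kinases, did not pass. The number of pathway genes that passed went from 14 to 8 without a filter on low counts. It also fell when shCDK5RAP3 replicate 1 or shCDK5RAP3 replicate 2 was left out. In each of these settings the number of calls over all genes fell too.

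Of 14 tested actin partners 6 rose, 3 fell and 5 did not pass, with a median log2 fold change of 0.12. The 9 that passed were 64.3% of the list, beside 41.5% of all genes. Alpha-actinins are the main ligands of the PDZ domain. ACTN1, the most abundant of them by CPM with 5493 to 6138 counts per library, did not pass (0.07). ACTN4, the other non-muscle form, rose from 136 ± 8.52 to 173 ± 0.0446 CPM (SD, n = 2 each; log2 fold change 0.35 ± 0.07 SE, edgeR adjusted p = 0.00299). ACTN2, a muscle form, fell from 128 and 142 counts to 60 and 87 (-0.88). TPM2 (0.73), TPM4 (0.59) and TPM3 (0.57), tropomyosins that coat the filaments, rose, and TPM1 (0.05) did not pass. Of the filamin crosslinkers FLNC (-1.29) fell and FLNA (0.16) did not pass. MYOZ1, a Z-disc protein that binds LDB3, fell from 36 and 48 counts to 10 and 4 (-2.56), and PALLD (0.30) rose. Calls were lost for ACTN2 (edgeR adjusted p = 0.111) without shCDK5RAP3 replicate 1 and for ACTN4 (0.0703) without shCDK5RAP3 replicate 2. TPM2 (0.0565 and 0.0843) and PALLD (0.061 and 0.0795) lost theirs in each of these fits, and no filter on low counts ended those of TPM2 (0.0865), ACTN2 (0.0927) and MYOZ1 (0.0517).

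Among 14 tested signalling partners 3 rose, 5 fell and 6 did not pass, with a median log2 fold change of -0.32. That is 57.1% past the threshold, beside 41.5% of all genes. ID2, a helix-loop-helix inhibitor that PDLIM5 can hold in the cytoplasm, had the largest rise. It had 811 and 900 counts in shControl and 3880 and 4467 in shCDK5RAP3, 29.5 ± 2.07 against 143 ± 10.7 CPM (SD, n = 2 each; log2 fold change 2.28 ± 0.08 SE, edgeR adjusted p = 5.21e-07). SIPA1L1 (SPAR), a spine protein that binds PDLIM5, fell (-0.86), and so did the N-type calcium channel subunit CACNA1B (-0.51) and the kinase PRKCA (-0.36). PRKCE (0.22), a kinase that PDLIM5 carries, did not pass, and PRKCB, another, had 0 and 0 counts against 4 and 3 and was not tested. INSR (-1.07) and RET (-0.28), receptors that bind PDLIM7, fell. RELA (0.39), a target of PDLIM2, and PRKAA1 (0.31), a catalytic subunit of the kinase AMPK, rose. The 8 calls of this list went to 5 without a filter on low counts or at an adjusted p of 0.01. They also fell when shCDK5RAP3 replicate 1 or shCDK5RAP3 replicate 2 was left out. In each of these settings fewer of all genes passed as well.

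The other LIM proteins of the cytoskeleton had 6 rises, 9 falls and 24 that did not pass of 39 tested, with a median log2 fold change of -0.14. The share that passed, 38.5%, is near the 41.5% of all genes. The zyxin relatives at focal adhesions and junctions included ZYX (0.72) and AJUBA (0.74), which rose, and LPP (0.13), LIMD1 (0.17) and TRIP6 (-0.36), which did not pass. TES (0.97), paxillin (PXN, 0.39), LASP1 (0.40) and LIMS1 (0.38) rose as well. The lowest log2 fold change of the list was that of ABLIM3, a gene with few counts (-2.51; 16 and 25 counts to 5 and 2). FHL3 (-1.03), MICAL2 (-0.81), MICAL1 (-0.69) and PRICKLE1 (-0.60) also fell. LMO7, which holds a PDZ and a LIM domain too, did not pass (-0.09). Without a filter on low counts, where fewer of all genes passed, 9 of this list did. Then ABLIM3 (edgeR adjusted p = 0.0748), MICAL2 (0.144), AJUBA (0.0843) and PXN (0.0517) lost their calls, as MICAL2 (0.133) and PXN (0.0624) did without shCDK5RAP3 replicate 1 and ABLIM3 (0.118) and AJUBA (0.0908) without shCDK5RAP3 replicate 2.

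**Figure D5:**
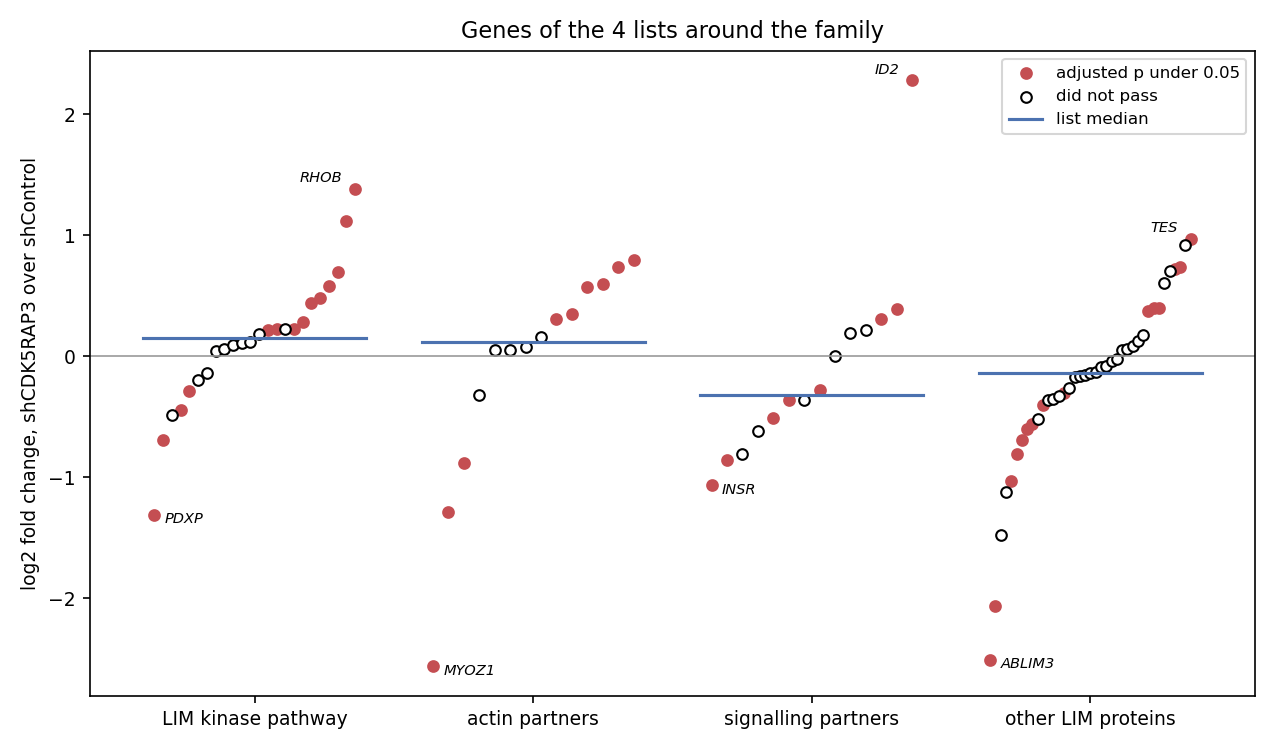
Log2 fold change, shCDK5RAP3 over shControl, of each tested gene in the 4 lists around the family, sorted within a list, with filled red points for an edgeR adjusted p under 0.05, open points for the rest and a blue line at the list median. ID2 (2.28) and RHOB (1.38) are highest in their lists, and MYOZ1 (-2.56) and ABLIM3 (-2.51) are lowest in theirs.

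LDB3, PDLIM3, ACTN2 and MYOZ1 are best known from striated muscle, so muscle markers were read beside them. Of 12 such markers, MYOD1, MYH2 and MYH7 were at 0 in every library and 4 were tested, of which DES fell and 3 did not pass. DES had 17 and 18 counts in shControl and 0 and 0 in shCDK5RAP3. With a floor of 3 counts per library, DES was at least 5.85-fold lower. The summed level of the 12 was 31.9 to 40.2 CPM in shControl and 37.4 to 39.1 CPM in shCDK5RAP3, most of it TTN. Over all genes tested 21.8% fell and 19.7% rose, as a background for these and the following marker counts. Fibroblast markers, which could bear on the actin genes, had 5 falls and 1 rise of 8. Their summed level was 816 to 834 CPM in shControl and 530 to 540 CPM in shCDK5RAP3. Leukocyte markers summed to 1.79 to 3.92 CPM over all libraries (0 of 3 tested passed), endothelial ones to 1.05 to 1.80 CPM (CDH5 fell, 1 of 2) and epithelial ones to 2.35 to 6.88 CPM (2 of 2 fell). The part of any of these in the members' values was not tested.

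Genes with profiles nearest to that of PDLIM5 were sought among 13113 named genes with a mean log2 CPM of at least 1. Likeness was the Euclidean distance of log2 CPM, centred on the shControl mean, over the 4 libraries. The nearest were ABCC9 (distance 0.0801), a subunit of potassium channels, RIMS3 (0.123), a presynaptic protein, SELENBP1 (0.136), SCPEP1 (0.139) and the pseudogene AL365223.1 (0.170). ABCC9 had 259 and 253 counts in shControl and 46 and 49 in shCDK5RAP3. RIMS3, the nearest at a level like that of PDLIM5, had 8218 and 7471 counts against 1494 and 1375. With 2 libraries per group, nearness here means little more than an equal log2 fold change.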

How the data were processed

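RNA was sequenced from 2 shControl and 2 shCDK5RAP3 libraries of SK-N-BE(2) cells, made with an Illumina TruSeq kit per the labels' protocols. The authors deposited whole-number read counts per Ensembl gene, not scaled between libraries. HISAT2 2.2.0, StringTie and hg38 were used, per the submitters' processing notes, which give no roles or order. The sources used here do not give the annotation release, whether strand was used, or how multi-mapping reads were counted.

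Of 64252 rows 56591 matched GENCODE 29, the source of symbols, exon lengths and coordinates. The comparison was run over the whole table in R 4.3.3 with edgeR 4.0.16 (TMM factors, filter by group, quasi-likelihood test, Benjamini-Hochberg adjustment over 18775 genes, threshold 0.05), without a replicate block. The biological coefficient of variation was 0.0959. Each standard error was obtained from the log2 fold change and the F statistic (absolute change over root F). CPM uses TMM-scaled library sizes. The method was tested on simulated data. Far fewer genes were changed there than passed here, so a change this broad was not covered. At this depth a count of 0 allows up to 3 counts per library, about 0.103 CPM, for counting error only.

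The members, gene lists and 3′ UTR words were chosen with earlier results of these data known. The rule for named genes took CDK5RAP3, all members, the noradrenergic markers, up to 6 genes per list and direction that passed with the largest change, list genes whose role a sentence states, and the 5 profiles nearest to PDLIM5 (log2 CPM with a prior count of 2). Some genes that the rule took are not reported here by name and are kept in the counts. Alternatives were other scaling factors, no filter, a stricter filter (1 CPM in 2 libraries), limma-trend (limma 3.58.1), DESeq2 1.42.0, edgeR's robust option, a replicate block, an adjusted p of 0.01 and leaving out each library. Protein sequences were not used here. Upstream windows and their motifs came from RefSeq tables (GRCh38.p14), and 3′ UTRs from GENCODE 29 transcripts.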

Additional observations from a re-analysis of the deposited data

How the results depend on the processing

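Over 14 alternatives the 8 members other than PDLIM5 gave 112 values, of which 105 kept their side of the threshold and 7 lost it, all for PDLIM4, LDB3 and LIMK1, and 0 called values reversed. The log2 fold change of PDLIM5 stayed between -2.45 and -2.39. The 39 list genes taken by the naming rule gave 545 values, of which 45 lost their call, in 17 genes. With 1 library left out, 1 to 4 of the 8 members passed, and 3752 to 7329 of all genes, against 4 and 7792. Over all 9, which adds PDLIM5 by its selection and is no measure of stability, the count was 2 to 5. The lone library left in a group is then assumed to vary like the other group. With low counts left unfiltered, 4488 of 33921 genes passed, against 7792 of 18775 with the filter. The 4488 included 8 of the LIM kinase pathway, 5 of the signalling partners and 9 of the other LIM proteins. With 1 library left out, 8 to 15 genes of the LIM kinase pathway and 3 to 10 signalling partners passed, and 5 signalling partners passed at an adjusted p of 0.01. DESeq2 called 6697 genes and 4 of the 8 members. Fitted with a replicate block, 9148 genes and 4 of the 8 members passed. The labels do not say that equal numbers share a culture, and deviations of same-numbered libraries correlated at 0.147 over 13893 genes. Scaling moved the median of all genes by little, from -0.0323 by library size to 0.0279 with upper-quartile factors. Depth limits LDB3 and PDLIM1 most.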

Other observations

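Neighbours of the members in the genome were read after their values were seen, as the nearest tested protein-coding genes in GENCODE 29. Over all genes tested 41.5% passed the edgeR adjusted p of 0.05, and only some neighbours that passed are described below. C8orf58 beside PDLIM2 (log2 fold change 0.25), CCDC110 beside PDLIM3 (-0.67) and DOK3 beside PDLIM7 (-0.84) did not pass. Nor did ACSL6 (-0.62) and SLC22A4 (-0.98) beside PDLIM4 or RNF185 (0.01) beside LIMK2. PDLIM2 and PDLIM3 each lie next to a gene of the sorbin family (SORBS3 and SORBS2), adaptors that bind vinculin at focal adhesions and Z-discs. SORBS3 is 2491 bases from PDLIM2, and SORBS2 is 49832 bases from PDLIM3. SORBS2 fell from 780 and 1054 counts to 386 and 412 (log2 fold change -1.20 ± 0.14 SE, edgeR adjusted p = 0.000228), beside the rise of PDLIM3. SORBS3 fell from 1427 and 1550 counts to 887 and 971 (-0.68 ± 0.09 SE, edgeR adjusted p = 0.000278).

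The paralogs PDLIM5 and LDB3 are each followed by a type I receptor of bone morphogenetic proteins. BMPR1B, 89741 bases after PDLIM5, fell from 4804 and 4722 counts to 3187 and 3180 (log2 fold change -0.58 ± 0.06 SE, edgeR adjusted p = 0.000118). SMARCAD1, 160565 bases before PDLIM5, rose (0.27, edgeR adjusted p = 0.0106). BMPR1A, 20533 bases after LDB3, rose from 2000 and 1988 counts to 2431 and 2483 (0.30 ± 0.06 SE, edgeR adjusted p = 0.00541), and so did WAPL before it (0.30). On either side of LIMK1, ELN fell (-0.38, edgeR adjusted p = 0.00583) and EIF4H rose (0.20, edgeR adjusted p = 0.0176). PIK3IP1, 1513 bases after LIMK2 on the opposite strand, fell from 405 and 454 counts to 126 and 151 (-1.64).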
